A study of Mus musculus with 6 samples.

Results

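The 40 genes described here encode subunits of the receptors for glutamate, γ-aminobutyric acid (GABA) and glycine, and were taken from the 55536 genes of the deposited count table by gene symbol. They comprised 4 AMPA, 1 delta, 5 kainate, 7 NMDA and 7 metabotropic glutamate receptor genes, 10 GABA-A and 2 GABA-B receptor genes, and 4 glycine receptor genes. Their RNA was measured by bulk RNA-seq of basal keratinocytes, the proliferative layer of the epidermis, sorted from dorsal skin at E16.5 as cells positive for Epcam and α6 integrin. The 3 TKO samples carried Suv39h1 f/f, Suv39h2-/-, Setdb1 f/f and K14CreERT2+, in which tamoxifen activates a recombinase expressed from the keratin 14 promoter. The 3 Ctrl samples had the same floxed alleles and the same loss of *Suv39h2* and also received tamoxifen, but lacked the recombinase (K14CreERT2-). *Suv39h1*, *Suv39h2* and *Setdb1* encode enzymes that place trimethylation on lysine 9 of histone H3 (H3K9me3), a mark of silent chromatin. In the study's records the litters behind these libraries are marked mosaic, so TKO samples could hold cells that kept the floxed alleles. Library totals were 102159175, 136515436 and 104422632 counts in Ctrl replicates 1 to 3 and 116308383, 108957256 and 118413082 counts in TKO replicates 1 to 3. At this depth 3 counts, used here as the floor of detection, corresponded to 0.0232 to 0.0303 CPM (counts scaled to 1000000 counts of the normalized library size). The study's methods name at least 3 biological replicates per experiment and both sexes in each group, and each group held samples marked F and M. The labels do not say whether samples of a group with the same letter came from separate embryos, so the p-values measure the spread between these samples only.

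Glutamate opens ion channels built from AMPA, kainate or NMDA subunits, and also acts on metabotropic receptors, which signal through G proteins. Ionotropic glutamate receptors assemble from several subunits, and NMDA receptors need the obligatory subunit encoded by *Grin1*. GABA-A and glycine receptors are chloride channels, whereas the GABA-B receptor is a G protein-coupled pair of the *Gabbr1* and *Gabbr2* products. These genes are best known from neurons, where they carry fast synaptic transmission and its modulation.

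The sorted cells carried the RNA of their label. *Krt5*, which encodes a keratin of basal keratinocytes, had a mean level of 4270 CPM per kilobase of exon over the 6 libraries, and all 9 basal keratinocyte markers listed were detected in both groups. *Setdb1* RNA was 126, 118 and 121 CPM in Ctrl and 95.3, 62.3 and 74.9 CPM in TKO. Every TKO library lay below every Ctrl library, with a log2 fold change of -0.65 (SE 0.161) and an adjusted p of 0.286 by edgeR and 0.0449 by DESeq2. *Suv39h1* measured 83.7 ± 5.10 CPM (SD, n = 3) in Ctrl against 78.0 ± 10.5 CPM in TKO, and *Suv39h2* 16.2 ± 0.785 CPM against 17.5 ± 1.46 CPM. Counts over a whole gene include exons outside a deleted part, so these values do not measure the loss of function. On the other strand, *Setdb1* shares 1309 exonic bases with *Cers2*, and *Suv39h2* shares 5074 of its 10082 with *Dclre1c*. Their values therefore also depend on whether reads were counted by strand, which is not given. The remaining *Setdb1* RNA is given here as measured, and the share of cells that kept the floxed alleles was not tested.

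Most of the receptor genes were near the limit of detection in basal keratinocytes. In Ctrl, 24 of the 40 genes had more than 3 counts in each library, and in TKO 22 did, with 20 detected in both groups. The same criterion was met by 69.0% of 21571 protein-coding genes in Ctrl and 67.7% in TKO, and by 0.956% of 1046 olfactory receptor genes in Ctrl, a family known mainly from the nose. Averaged over all libraries, 9 receptor genes reached 1 CPM, 16 lay between 0.1 and 1 CPM, and 15 were under 0.1 CPM. Per kilobase of exon, 16 receptor genes were under 0.0101 CPM, the 95th percentile of the olfactory receptor genes, and the median of protein-coding genes was 0.666. Of the 24 glutamate receptor genes 15 were detected in Ctrl and 16 in TKO, and of the 16 GABA and glycine receptor genes 9 and 6.

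**Figure D1:**
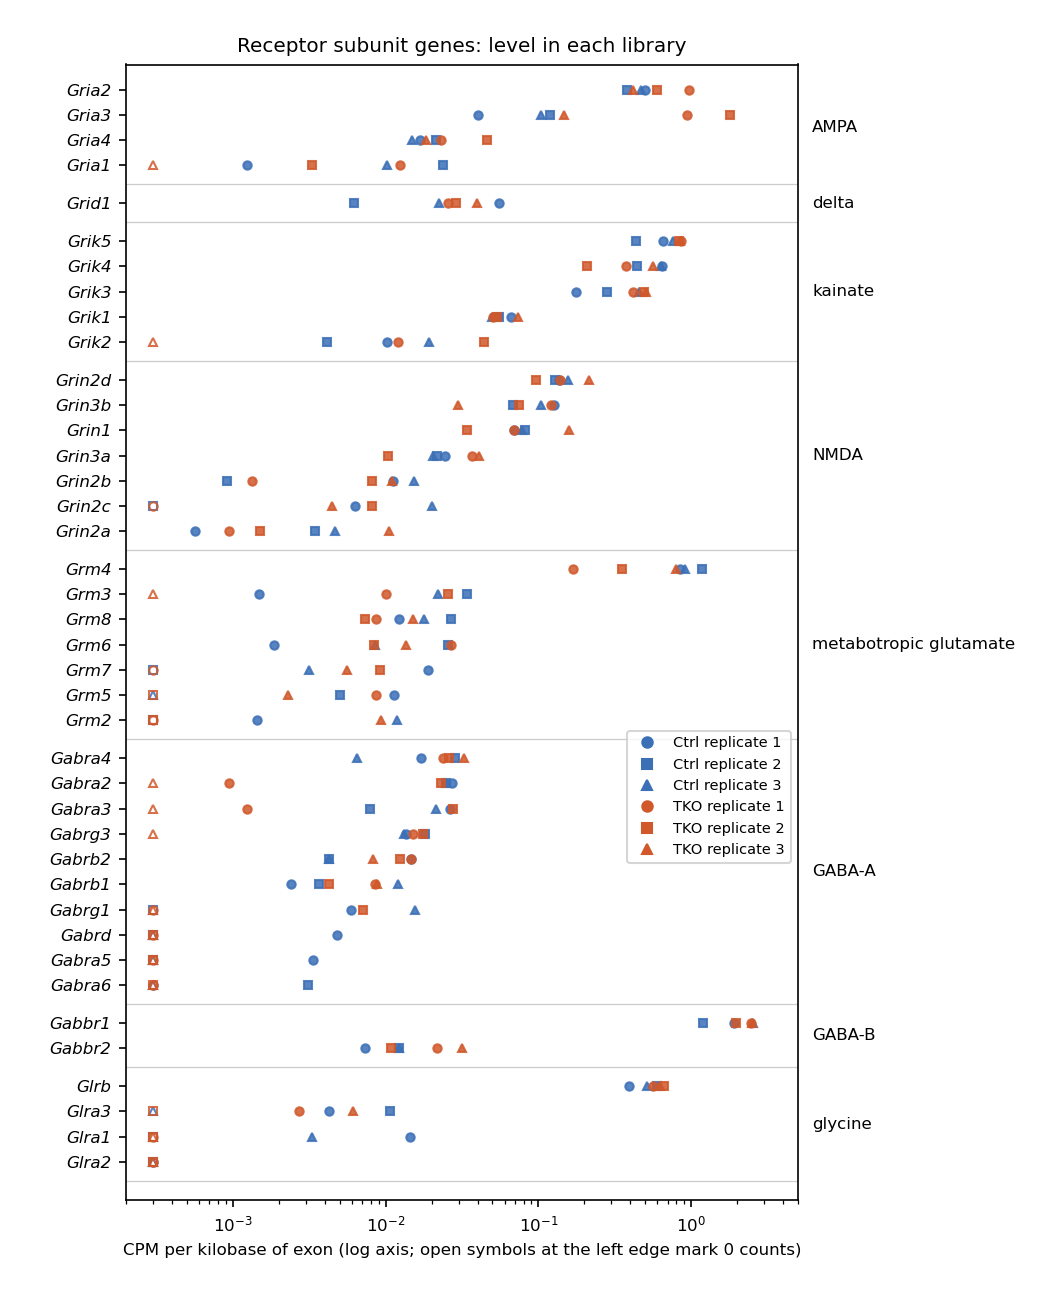
The level of each of the 40 receptor genes in each library, in CPM per kilobase of exon on a log axis, ordered by receptor class and by level within a class. Blue symbols are Ctrl libraries and orange symbols TKO libraries, open symbols at the left edge are 0 counts, and 8 genes (*Gabbr1*, *Grik5*, *Grm4*, *Glrb*, *Gria2*, *Gria3*, *Grik4* and *Grik3*) stand to the right of all others by mean level over the 6 libraries.

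The 8 genes with the highest mean level over all 6 libraries held most of the receptor RNA. *Gria3* was among them through TKO: in Ctrl its 0.0883 CPM per kilobase was below *Grin2d* (0.140) and *Grin3b* (0.0993). On the scale of CPM per kilobase of exon, *Gabbr1*, *Grik5*, *Grm4*, *Glrb*, *Gria2*, *Gria3*, *Grik4* and *Grik3* together made up 88.7% of the summed level of the 40 genes in Ctrl and 91.1% in TKO, as means of 3 libraries. *Gabbr1* alone accounted for 30.3% in Ctrl and 31.4% in TKO. The share of *Gria3* was 0.691%, 2.29% and 1.47% in Ctrl replicates 1 to 3 and 12.7%, 24% and 2.05% in TKO replicates 1 to 3, so that TKO replicate 3 lay within the Ctrl range. The share of *Grm4* was 14.4%, 22.5% and 13% in Ctrl and 2.29%, 4.73% and 11.2% in TKO, with TKO replicate 3 closest to Ctrl. By the mean over all 6 libraries, *Gabbr1* stood at the 60.2nd percentile of protein-coding genes and *Grik3*, the lowest of the 8 on that mean, at the 46.4th. The same 8 genes led when the length of the canonical transcript replaced that of all exons.

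Promoter sequences of 3 receptor genes are printed to show how differently these genes are built, since CG dinucleotides are the sites of DNA methylation and dense in the promoters of many widely expressed genes. RefSeq promoter sequences (build GRCm38.p6, 300 bases around the start of transcription) matched 29 of the 40 genes. The sequences read 5′ to 3′ along the gene's strand with each CG in capitals, which reads the same on both strands. *Gabbr1* (chr17:37045716-37046015, + strand) has the highest RNA level of the 40, *Grik3* (chr4:125490446-125490745, + strand) the most CG, and *Gabra3* (chrX:72656758-72657057, - strand) is the only one of the 29 genes with none.
Gabbr1: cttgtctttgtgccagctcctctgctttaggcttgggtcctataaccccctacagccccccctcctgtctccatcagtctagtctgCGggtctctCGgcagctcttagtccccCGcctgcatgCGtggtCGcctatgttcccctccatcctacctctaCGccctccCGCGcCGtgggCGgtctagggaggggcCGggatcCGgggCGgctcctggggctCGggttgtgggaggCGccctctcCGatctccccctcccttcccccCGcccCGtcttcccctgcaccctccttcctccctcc
Grik3: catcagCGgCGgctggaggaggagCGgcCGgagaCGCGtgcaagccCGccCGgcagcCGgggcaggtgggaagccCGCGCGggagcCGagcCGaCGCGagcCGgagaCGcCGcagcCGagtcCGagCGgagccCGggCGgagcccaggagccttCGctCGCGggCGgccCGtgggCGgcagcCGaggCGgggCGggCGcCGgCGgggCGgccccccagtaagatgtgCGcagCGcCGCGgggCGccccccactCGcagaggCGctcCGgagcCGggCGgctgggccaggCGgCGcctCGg
Gabra3: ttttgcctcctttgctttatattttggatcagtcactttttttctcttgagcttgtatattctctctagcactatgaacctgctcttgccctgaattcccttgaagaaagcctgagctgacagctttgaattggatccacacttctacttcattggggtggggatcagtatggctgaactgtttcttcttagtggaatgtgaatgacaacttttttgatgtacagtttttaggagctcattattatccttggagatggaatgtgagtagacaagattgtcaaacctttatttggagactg
The *Gabbr1* promoter held 18 CG and the *Grik3* promoter 50. Across 15290 protein-coding genes in the same table, taking the promoter richest in CG for each gene, 97.0% held at least 1 CG and the median count was 17. Fewer CG than in *Gabbr1* were found in 51.7% of those genes, and fewer than in *Grik3* in 98.5%. Of the 8 genes with the highest RNA levels, *Gria3* and *Grm4* had no matched promoter. The median was 28 CG over the 6 matched genes among the 8 and 13 over the other 23. The order was not uniform: *Gabbr2* held 46 CG with RNA near the floor, and *Grik5* only 10 with the second highest mean level over all 6 libraries.

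AMPA receptors are the main carriers of fast excitatory transmission in the brain. They contributed the gene with the largest log2 fold change in the main edgeR fit, among receptor genes that passed the low-count filter. With other settings, given below, that of *Gabra2* was larger in size. *Gria3* (ENSMUSG00000001986, chrX:40489476-40767490 on GRCm39), which encodes the GluA3 subunit, measured 0.515, 1.52 and 1.33 CPM in Ctrl replicates 1 to 3 and 11.9, 22.8 and 1.85 CPM in TKO replicates 1 to 3. TKO replicates 1 and 2 were far above all Ctrl libraries, while TKO replicate 3 lay just above the highest Ctrl library. The underlying counts were 51, 197 and 143 in Ctrl and 1406, 2522 and 225 in TKO, all well above the floor. The log2 fold change was 3.44 (SE 0.821), and the ratio of the mean CPM was 10.9. *Gria3* was not called by edgeR's quasi-likelihood test (adjusted p = 0.299, unadjusted p = 0.00274), and it was called by DESeq2 (adjusted p = 0.0372). With TKO replicate 3 left out, edgeR called it with an adjusted p of 0.0157 and a log2 fold change of 3.95, and leaving out each of the 6 libraries the log2 fold change ranged from 2.62 to 3.95 and the adjusted p from 0.0157 to 0.791. *Gria3* is X-linked, and the sample descriptions carry the letter F for Ctrl replicate 1 and TKO replicate 2 and M for the other 4. *Xist*, the RNA of the inactive X chromosome, measured 2640 and 2700 CPM in the F samples and at most 0.799 CPM in the others. TKO replicate 1, an M sample, was above every Ctrl library, and with the letter as a factor the log2 fold change was 3.22 with an adjusted p of 0.471.

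*Gria2*, which encodes the subunit that makes AMPA receptors impermeable to calcium, measured 13.7, 10.4 and 12.8 CPM in Ctrl and 26.5, 16.4 and 11.5 CPM in TKO. TKO replicates 1 and 2 were above the Ctrl range and TKO replicate 3 within it, and the log2 fold change of 0.56 (SE 0.279) did not pass the test (adjusted p = 0.889, edgeR). In Ctrl the level of *Gria2* per kilobase exceeded that of *Gria3* by 12.3, 3.16 and 4.50 times. In TKO replicates 1 to 3 the ratio was 1.03, 0.333 and 2.87, so *Gria3* was the more abundant subunit RNA in TKO replicate 2 only. *Gria4* had 29 to 50 counts in Ctrl and 40 to 92 in TKO, and *Gria1*, with 0 to 25 counts, was too low to test. Summed over the 4 genes, AMPA receptor RNA was 0.559, 0.544 and 0.597 CPM per kilobase in Ctrl and 1.94, 2.45 and 0.583 in TKO. The sum in TKO replicate 3 thus lay within the Ctrl range.

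**Figure D2:**
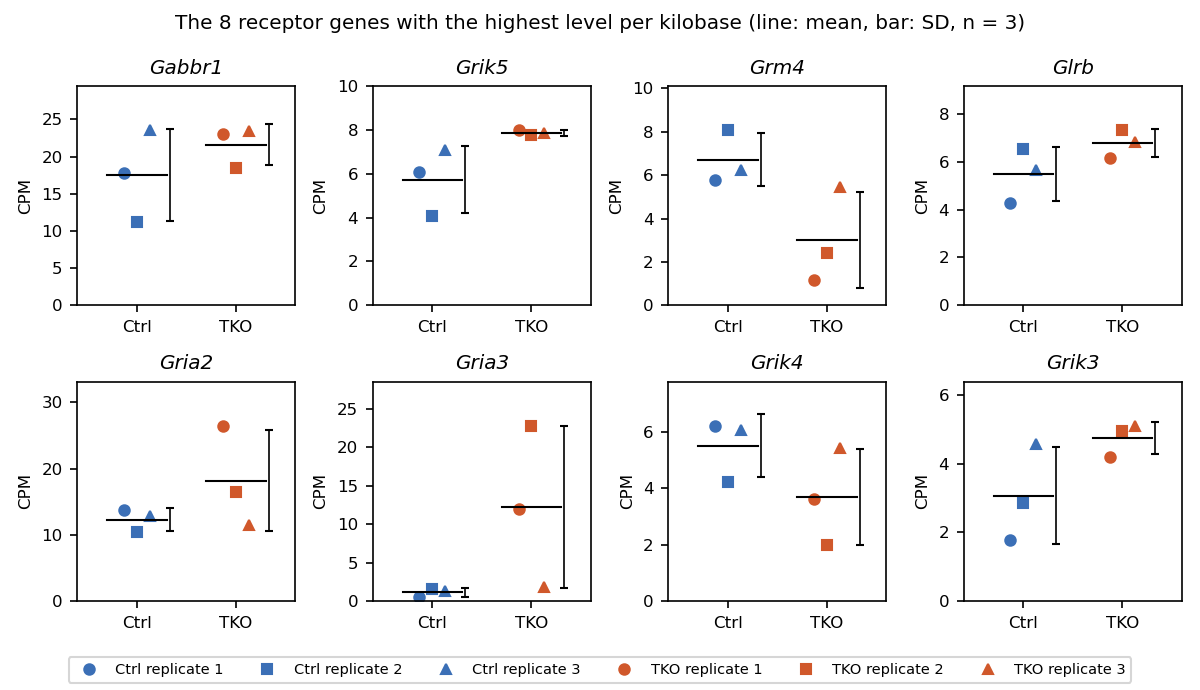
CPM in each library (symbols) for the 8 receptor genes with the highest level per kilobase, with the mean as a line and the SD as a bar (n = 3), on linear axes that start at 0. *Gria3* was at 11.9 and 22.8 CPM in TKO replicates 1 and 2 and at 1.85 CPM in TKO replicate 3, and *Grm4* at 5.45 CPM in TKO replicate 3 was closest to the Ctrl libraries.

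Kainate receptors form channels that act at both sides of synapses, from the low-affinity subunits of *Grik1* to *Grik3* and the high-affinity subunits of *Grik4* and *Grik5*, which need a low-affinity partner to make a channel. *Grik5* (ENSMUSG00000003378, chr7:24709269-24772708 on GRCm39) measured 6.06, 4.06 and 7.08 CPM in Ctrl and 8.0, 7.75 and 7.84 CPM in TKO. All TKO libraries exceeded all Ctrl libraries, but the smallest gap was small against the Ctrl spread, and the log2 fold change of 0.46 (SE 0.25) did not pass the test (adjusted p = 0.95, edgeR). It shares 145 of its 9300 exonic bases with *Zfp574* on the other strand, whose mean level was 34.4 CPM (Ctrl) and 32.8 CPM (TKO). Reads from the shared bases could not be assigned to either gene without the strand setting.

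*Grik4* measured 6.21, 4.22 and 6.06 CPM in Ctrl and 3.63, 2.0 and 5.41 CPM in TKO. TKO replicates 1 and 2 lay below all Ctrl libraries and TKO replicate 3 within their range (log2 fold change -0.58, SE 0.365). *Grik3* measured 1.78, 2.86 and 4.57 CPM in Ctrl and 4.21, 4.94 and 5.11 CPM in TKO. Its groups overlapped through TKO replicate 1 (log2 fold change 0.63, SE 0.353, adjusted p = 0.969, edgeR). *Grik1* had 36 to 60 counts in all 6 libraries. *Grik2*, a kainate subunit gene widely expressed in the brain, was above the floor in all Ctrl libraries, with 17, 9 and 35 counts, but had 24, 82 and 0 counts in TKO. The value of 0 allows up to 0.0247 CPM, the floor of TKO replicate 3, and the groups overlapped. Among kainate genes the low-affinity partner with the most RNA was therefore *Grik3*, with a mean of 0.304 CPM per kilobase in Ctrl and 0.470 in TKO. The delta receptor gene *Grid1*, which encodes a synaptic organiser related to the glutamate channels, measured 0.343, 0.0387 and 0.139 CPM in Ctrl and 0.161, 0.181 and 0.247 CPM in TKO, all within the Ctrl range (log2 fold change 0.19, SE 0.881).

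NMDA receptors, which pass calcium when glutamate and a co-agonist bind together, were represented mainly by *Grin2d*, *Grin3b* and *Grin1*. *Grin2d*, which encodes a subunit of mostly embryonic NMDA receptors in the brain, measured 1.08, 1.01 and 1.22 CPM in Ctrl and 1.09, 0.761 and 1.68 CPM in TKO (log2 fold change 0.09, SE 0.408). TKO replicate 2 was the lowest of the 6 libraries and TKO replicate 3 the highest. The obligatory subunit gene *Grin1* measured 0.767, 0.905 and 0.872 CPM in Ctrl and 0.765, 0.380 and 1.75 CPM in TKO. The ratio of *Grin2d* to *Grin1* per kilobase was 1.35 to 2.82 over the 6 libraries. *Grin1* shares 1307 exonic bases with the antisense gene *Grin1os*, and *Grin3b*, which had 12 to 47 counts, shares 1059 with *Tmem259*, a gene whose mean level was 96.8 CPM (Ctrl) and 101 CPM (TKO), so both values are uncertain. *Grin3a* had 15 to 65 counts. *Grin2b*, a leading subunit in the forebrain, had 28, 3 and 42 counts in Ctrl and 4, 23 and 34 in TKO, above the floor throughout TKO only, with overlapping groups. *Grin2a* and *Grin2c* had at most 24 counts and were not tested. Of the 5 NMDA genes tested, 3 had positive and 2 negative log2 fold changes, from -0.41 to 0.40.

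Among the metabotropic glutamate receptor genes only *Grm4* was well above the floor. *Grm4* (ENSMUSG00000063239, chr17:27641361-27740377 on GRCm39), which encodes a receptor that lowers cyclic AMP through inhibitory G proteins, measured 5.79, 8.09 and 6.26 CPM in Ctrl and 1.16, 2.43 and 5.45 CPM in TKO. Every TKO library lay below every Ctrl library, with TKO replicate 3 close to the lowest of them. The log2 fold change was -1.16 (SE 0.477), which did not pass the test by edgeR (adjusted p = 0.776, unadjusted p = 0.0364) or DESeq2 (adjusted p = 0.306). Leaving out TKO replicate 1 gave -0.77, and leaving out TKO replicate 3 gave -1.91. *Grm4* was called in an edgeR fit of all genes without the low-count filter (adjusted p = 0.0204). *Grm3* with 0 to 30 counts and *Grm8* with 8 to 34 were the other 2 tested genes, and both had negative log2 fold changes, -0.71 (SE 1.37) and -0.87 (SE 0.821). *Grm6*, known from the bipolar cells of the retina, had 1, 18 and 5 counts in Ctrl and 17, 5 and 9 in TKO, above the floor throughout TKO only. *Grm2*, *Grm5* and *Grm7* had 0 counts in 2 or more libraries each and at most 12 in any. The summed level of the class was 0.893, 1.27 and 0.979 CPM per kilobase in Ctrl and 0.223, 0.405 and 0.844 in TKO, with *Grm4* making up most of it.

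The 10 GABA-A receptor genes were all low. The most abundant per kilobase by the mean over all 6 libraries was *Gabra4*, which encodes an α subunit of extrasynaptic receptors. In Ctrl its mean of 0.0173 CPM per kilobase was below *Gabra2* (0.0256) and *Gabra3* (0.0186). *Gabra4* measured 0.172, 0.286 and 0.0649 CPM in Ctrl and 0.238, 0.263 and 0.329 CPM in TKO (log2 fold change 0.66, SE 0.743). TKO replicates 1 and 2 were within the Ctrl range and TKO replicate 3 above it. For 3 genes the count passed the floor in all Ctrl libraries but not in all TKO libraries. *Gabra2*, a synaptic α subunit gene, had 24, 29 and 24 counts in Ctrl and 1, 23 and 0 in TKO, so that every TKO library was lower, but TKO replicate 2 by little (log2 fold change -1.67, SE 1.31). With the replicate number as a block its log2 fold change was -3.222 (*Gria3* 3.075), and with the letter F or M as a factor -3.228 (*Gria3* 3.222). *Gabra3* had 18, 7 and 16 counts in Ctrl and 1, 21 and 0 in TKO, and *Gabrg3* 16, 28 and 17 in Ctrl and 21, 23 and 0 in TKO. Groups overlapped for both, and none of the 3 passed the test (adjusted p = 1.0 each, edgeR). *Gabrb1* and *Gabrb2*, genes of the β subunits that every typical GABA-A receptor contains, had 4 to 22 and 5 to 19 counts. *Gabrb1* shares 396 exonic bases with *Commd8* and 101 with *Gabra4*. *Gabrg1* had 0 counts in 3 libraries, and *Gabrd*, *Gabra5* and *Gabra6* never exceeded 3 counts, which was the floor itself.

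The 2 GABA-B genes differed widely in level. *Gabbr1* (ENSMUSG00000024462, chr17:37356703-37387265 on GRCm39), which encodes the subunit that binds GABA, measured 17.8, 11.2 and 23.6 CPM in Ctrl and 23.0, 18.4 and 23.4 CPM in TKO. All TKO libraries lay within the Ctrl range (log2 fold change 0.30, SE 0.25). *Gabbr2*, which encodes the subunit that carries the first to the cell surface and couples to the G protein, had 6, 13 and 11 counts in Ctrl and 21, 10 and 32 in TKO, and its groups overlapped (log2 fold change 1.0, SE 0.855). Per kilobase, *Gabbr1* exceeded *Gabbr2* by 78.3 to 259 times in the 6 libraries.

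The glycine receptor genes showed a similar contrast. *Glrb*, which encodes the β subunit that anchors the receptor to the scaffold protein gephyrin, measured 4.28, 6.52 and 5.65 CPM in Ctrl and 6.15, 7.33 and 6.83 CPM in TKO. The groups overlapped, with only Ctrl replicate 2 among the TKO values (log2 fold change 0.30, SE 0.241). The α subunit genes, whose products are needed for a channel, were at or near the floor. *Glra1* had 4, 0 and 1 counts in Ctrl and 0 in all TKO libraries, *Glra3* had 0 to 13, and *Glra2* had 0 counts in all 6 libraries. A count of 0 allows a level of up to 0.0232 to 0.0303 CPM, so RNA below that was not detectable at this depth. In bulk RNA a small number of cells with high levels and low levels in all cells cannot be told apart, nor can fewer cells and less RNA per cell.

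Over the 26 receptor genes that passed the low-count filter, none was called by edgeR with an adjusted p under 0.05 and a log2 fold change beyond 1 in either direction. Over all 20622 tested genes, 27 were called higher in TKO (0.131%) and 0 lower (0.0%). At an unadjusted p under 0.05, 1 receptor gene was higher (*Gria3*) and 1 lower (*Grm4*), beside 4.06% and 2.02% of all tested genes. DESeq2 called 1 receptor gene, *Gria3*, beside 0.936% of all tested genes called higher by DESeq2 and 0.102% lower. An edgeR fit with the replicate number as a block called 0 receptor genes, beside 0.213% of all tested genes called higher. The groups did not overlap for 2 genes higher in TKO (*Gria3* and *Grik5*) and 2 lower (*Grm4* and *Gabra2*), which is 4 of 26 beside 6.35% and 5.11% of all tested genes. Positive log2 fold changes were found for 17 genes and negative for 9 (65.4% positive, against 51.9% of all tested genes), with a median of 0.22 against 0.01. Without the low-count filter 19 of 39 receptor genes were positive, with a median of -0.43. An absolute log2 fold change above 1 was found for 4 genes (*Gria3*, *Grm4*, *Gabra2* and *Gabbr2*), beside 7.53% of all tested genes. TKO replicates 1, 2 and 3 lay within the Ctrl range for 14, 11 and 9 of the 26 genes, and for 50.0%, 49.7% and 43.6% of all tested genes. The 26 genes passed a filter on counts, so these shares do not describe all 40.

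By class, the 3 AMPA genes tested had log2 fold changes from 0.56 to 3.44 and the 5 kainate genes from -0.58 to 0.74. The 3 metabotropic genes ranged from -1.16 to -0.71 and the 6 GABA-A genes from -1.67 to 0.66. Standard errors ran from 0.241 for *Glrb*, with at least 424 counts in each library, to 1.40 for *Gabra3*, with at most 21, so that the tests of the low genes resolved little.

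**Figure D3:**
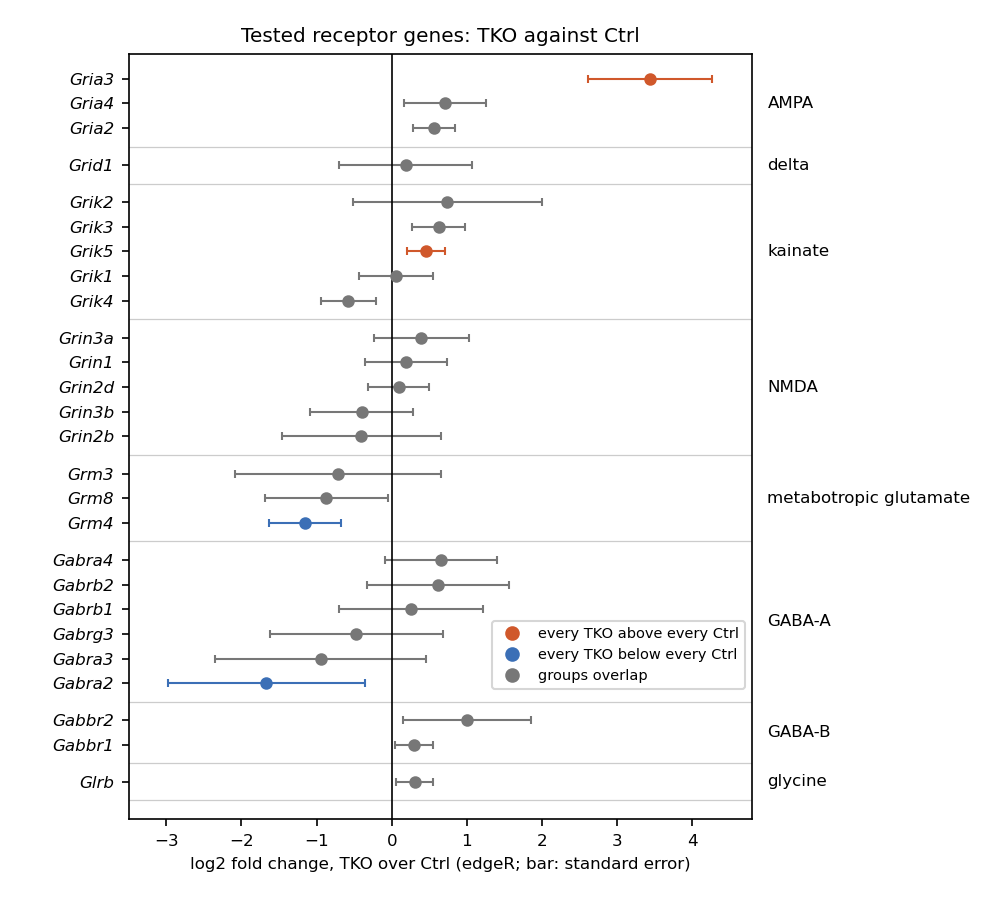
The log2 fold change of TKO over Ctrl for the 26 receptor genes tested, by class, with the standard error derived from the edgeR test as a bar. Orange marks *Gria3* and *Grik5*, whose TKO libraries all exceeded the Ctrl libraries, blue marks *Grm4* and *Gabra2*, whose TKO libraries were all lower, and grey marks genes whose groups overlapped.

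Genes that work with these receptors were examined next. The most abundant gene of each list was taken per kilobase of exon, by the mean over all 6 libraries. Of 12 further receptor subunit genes, including *Gabrp* and *Gabre*, 6 were tested and none passed (1 with a positive and 5 with negative log2 fold changes). *Gabrp*, which encodes the π subunit found mainly outside the nervous system, was the most abundant of them at 3.54, 3.59 and 3.35 CPM in Ctrl and 3.60, 1.80 and 3.08 CPM in TKO. Its mean of 0.927 CPM per kilobase over all 6 libraries exceeded that of *Gabra4*, 0.0224, the highest of the 10 GABA-A genes on that mean. Of the genes of auxiliary subunits, which traffic receptors and tune their gating, 11 of 18 matched were tested, and 0 were called by edgeR. The leading one was *Cnih2*, a partner of AMPA receptors, at 12.7, 10.4 and 11.0 CPM in Ctrl and 12.1, 11.1 and 12.4 CPM in TKO. At an unadjusted p under 0.05, 4 of the 11 were higher in TKO and 0 lower, beside 4.06% and 2.02% of all tested genes. These 4, named after their values were seen, are *Cacng4*, which encodes a transmembrane AMPA receptor regulatory protein, *Neto1* and *Neto2*, whose products bind kainate receptors, and *Kctd12*, whose product binds GABA-B receptors. For *Cacng4* the values were 6.94, 4.35 and 7.67 CPM in Ctrl and 9.59, 12 and 14.4 CPM in TKO, without overlap (log2 fold change 0.93, SE 0.261, adjusted p = 0.40 by edgeR and 0.044 by DESeq2). *Neto1* measured 0.172, 0.124 and 0.176 CPM in Ctrl and 0.297, 0.715 and 0.740 CPM in TKO, again without overlap (log2 fold change 1.89, SE 0.587, adjusted p = 0.511, edgeR).

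All 20 genes of postsynaptic scaffolds were tested and none was called, with 12 positive and 8 negative log2 fold changes and a median of 0.14. *Dlgap4*, the most abundant over all 6 libraries, was at 87.0, 79.0 and 93.6 CPM in Ctrl and 80.6, 87.0 and 90.1 CPM in TKO. In TKO its mean of 8.73 CPM per kilobase was just below that of *Dlg1* (8.80). *Gphn*, which encodes gephyrin, the scaffold of glycine and GABA-A receptors, was at 43.4 to 52.5 CPM in all 6 libraries. Of 15 transporter genes for the 3 transmitters 6 were tested and none was called. The glutamate transporter gene *Slc1a3* led them at 57.8, 71.9 and 57.6 CPM in Ctrl and 67.6, 61.2 and 71.0 CPM in TKO. Of 12 genes of transmitter metabolism 11 were tested and 0 were called by edgeR. *Shmt2*, whose mitochondrial product interconverts serine and glycine, was the most abundant at 216, 157 and 181 CPM in Ctrl and 151, 155 and 192 CPM in TKO. *Gldc*, whose product breaks down glycine and which was named after its values were seen, measured 19.8, 13 and 23.9 CPM in Ctrl and 45.0, 50.1 and 33.4 CPM in TKO. Its groups did not overlap, with a log2 fold change of 1.18 (SE 0.239), and it was called by DESeq2 (adjusted p = 0.000544) and not by edgeR (adjusted p = 0.164).

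Markers of other cell types that the sort could hold were compared in the same libraries. Of 14 neuron markers, 10 were detected in Ctrl, and their sum was 12.7, 17.6 and 19.1 CPM in Ctrl and 18.9, 18.7 and 15.5 CPM in TKO, all within the Ctrl range. *Map2*, a microtubule protein gene named, like *Piezo2* and *Ttn*, after its values were seen, gave most of that sum (7.61, 10.1 and 13 CPM in Ctrl, 15.7, 13.6 and 9.53 CPM in TKO). Without it the sum was 5.13, 7.52 and 6.14 CPM in Ctrl and 3.22, 5.11 and 6.0 CPM in TKO, with TKO replicate 1 below the Ctrl range, TKO replicate 2 just below it and TKO replicate 3 within it. Of the 12 neuron markers tested 8 had negative and 4 positive log2 fold changes, with a median of -0.56, and 0 at an unadjusted p under 0.05. *Gap43* led them per kilobase, at 1.13, 2.26 and 1.84 CPM in Ctrl and 0.731, 1.59 and 1.91 CPM in TKO. Of 9 Merkel cell markers all were detected in Ctrl, and their sum was 22.9, 26.0 and 25.4 CPM in Ctrl and 9.93, 12.3 and 12.5 CPM in TKO, without overlap. All 8 tested had negative log2 fold changes, with 7 at an unadjusted p under 0.05, 0 called by edgeR and 3 by DESeq2 (*Krt8*, *Isl1* and *Pou4f3*, named after their values were seen). *Krt8* was the most abundant over all 6 libraries, at 3.61, 4.01 and 3.07 CPM in Ctrl and 1.1, 0.625 and 1.09 CPM in TKO. In TKO its mean of 0.479 CPM per kilobase was below that of *Krt18* (0.619). The mechanosensitive channel gene *Piezo2* gave most of the sum in both groups, at 12.4, 14.5 and 13.5 CPM in Ctrl and 6.0, 9.82 and 8.44 CPM in TKO. Without it the sum was 10.5, 11.5 and 11.9 CPM in Ctrl and 3.93, 2.45 and 4.05 CPM in TKO. With or without *Piezo2*, all 3 TKO sums were below all Ctrl sums. The part of Merkel cells in the level of *Grm4* was not tested.

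The 8 melanocyte markers summed to 16, 23.4 and 23.4 CPM in Ctrl and 19.6, 36.6 and 28.3 CPM in TKO, with overlap. *Ednrb* was the most abundant of them over all 6 libraries, at 2.92, 7.40 and 2.97 CPM in Ctrl and 2.37, 15.9 and 5.86 CPM in TKO. In Ctrl its mean of 0.985 CPM per kilobase was below that of *Pmel* (1.09). *Mlana*, named after its values were seen, measured 0.141, 0.0155 and 0.167 CPM in Ctrl and 0.994, 1.53 and 0.304 CPM in TKO, with every TKO library above the Ctrl libraries. It was called by DESeq2 (adjusted p = 0.0206) and not by edgeR (adjusted p = 0.36). The part of melanocytes in the receptor values was not tested. Skeletal muscle markers, 8 of 8 with positive log2 fold changes, summed to 3.60, 11.0 and 7.12 CPM in Ctrl and 33.2, 33 and 34.5 CPM in TKO. Among them, the embryonic myosin gene *Myh3*, was called by edgeR, the only gene of all related lists (0.656, 0.758 and 0.501 CPM in Ctrl and 3.87, 3.46 and 4.37 CPM in TKO, log2 fold change 2.61, adjusted p = 0.0211). No gene of those lists was called when any library other than TKO replicate 3 was left out. The titin gene *Ttn* gave most of the sum in TKO, and without it the sum was 2.27, 3.59 and 3.22 CPM in Ctrl and 7.07, 10.9 and 13.6 CPM in TKO. The part of muscle RNA in the receptor values was not tested. *Myog* led the muscle list by level per kilobase, at 0.283, 0.813 and 0.315 CPM in Ctrl and 0.119, 1.44 and 1.66 CPM in TKO.

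Fibroblast markers summed to 1210, 3380 and 3030 CPM in Ctrl and 2180, 2580 and 2830 CPM in TKO. *Col1a1*, a collagen gene, led them at 367, 1310 and 1260 CPM in Ctrl and 799, 1030 and 1180 CPM in TKO. Immune markers summed to 20.3, 41.2 and 12.5 CPM in Ctrl and 6.13, 71.6 and 17.6 CPM in TKO, and their leading gene *Lyz2*, of macrophage lysozyme, was at 4.98, 17.3 and 3.07 CPM in Ctrl and 1.32, 33.7 and 4.57 CPM in TKO. For both lists the groups overlapped. Endothelial markers summed to 27.1, 27.0 and 36.9 CPM in Ctrl and 25.1, 64.2 and 51.5 CPM in TKO, led by the cadherin gene *Cdh5* at 8.56, 8.44 and 13.1 CPM in Ctrl and 8.23, 25.2 and 23 CPM in TKO. Schwann cell markers summed to 315, 240 and 293 CPM in Ctrl and 246, 231 and 277 CPM in TKO, with *Foxd3* at 0 counts in all libraries. *Erbb3*, also expressed by keratinocytes, made up most of that sum, at 269, 196 and 239 CPM in Ctrl and 190, 168 and 230 CPM in TKO. Without it the Schwann cell sum was 46.5, 43.6 and 54.2 CPM in Ctrl and 56.2, 62.8 and 47.5 CPM in TKO. Here TKO replicates 1 and 2 were above the Ctrl range and TKO replicate 3 within it. Of the 8 Schwann cell markers tested, 6 had positive and 2 negative log2 fold changes, with a median of 0.17. Basal keratinocyte markers summed to 25200, 24900 and 19000 CPM in Ctrl and 15800, 17600 and 20300 CPM in TKO, and *Krt5* measured 12300, 12100 and 8180 CPM in Ctrl and 6990, 8040 and 9020 CPM in TKO. The groups overlapped for both. Of the 9 basal keratinocyte markers tested, 5 had positive and 4 negative log2 fold changes, with a median of 0.011. The groups did not overlap for 1 marker higher in TKO and 1 lower. The lower one, *Krt15*, named after its values were seen, had an unadjusted p of 0.00103 by edgeR (adjusted p = 0.185 by edgeR and 0.00066 by DESeq2). None of the fibroblast, immune, endothelial, Schwann cell or neuron markers was called by edgeR or DESeq2. Their part in the levels of the receptor genes was not tested.

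**Figure D4:**
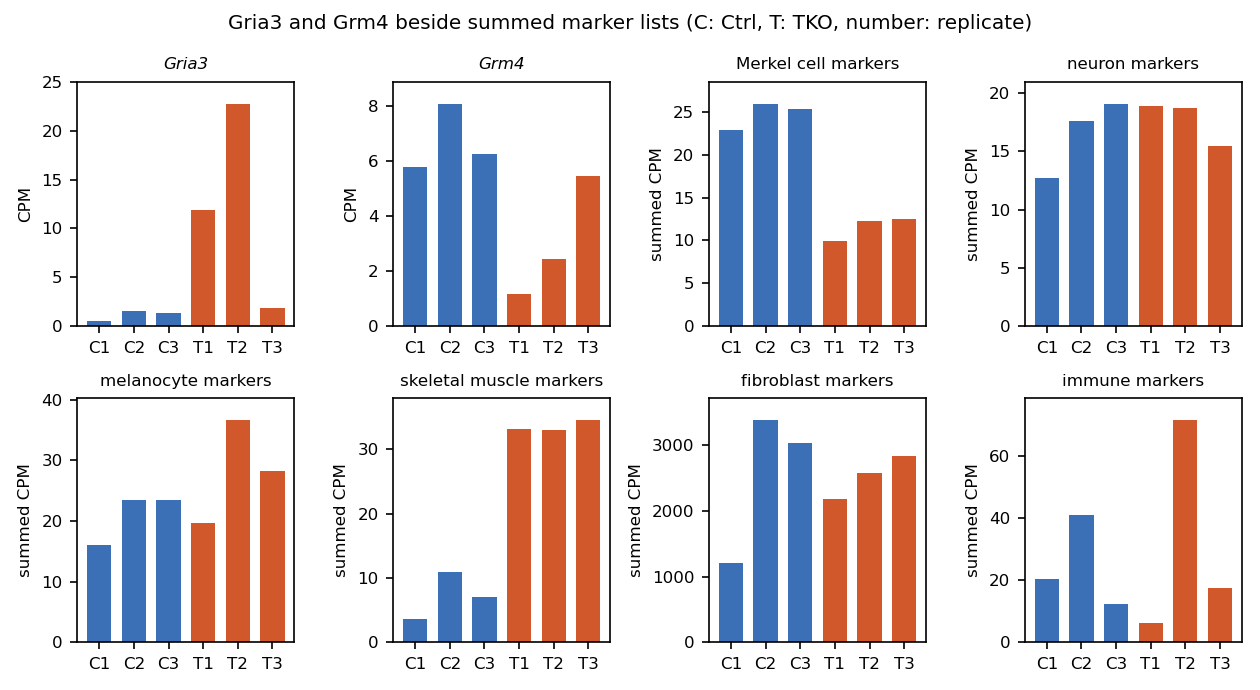
Bars give CPM of *Gria3* and *Grm4* and the summed CPM of 6 lists of cell type markers in each library (C, Ctrl, blue; T, TKO, orange; the number is the replicate), on axes that start at 0. The Merkel cell sum was lower in all TKO libraries (9.93 to 12.5 CPM against 22.9 to 26.0 CPM) and the skeletal muscle sum higher (33 to 34.5 CPM against 3.60 to 11.0 CPM), while *Gria3* was high in TKO replicates 1 and 2 only.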

How the data were processed

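Paired-end libraries were made from rRNA-depleted total RNA of sorted cells. The authors trimmed reads with fastp, aligned them with STAR and deposited a table of raw counts, 1 row per Ensembl gene and 1 column for each of the 6 libraries, without normalization. The submitters' processing notes name GRCm38 and the study's methods GRCm39, and the counting program, its annotation and its strand setting are not given in the sources used here. Symbols, exon lengths and positions were taken from GENCODE vM39 (GRCm39), in which 51477 of the 55536 IDs were found, all 40 receptor genes included. Of these genes 24 share exonic bases with a gene on the other strand.

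Counts were tested in R 4.3.3 with edgeR 4.0.16 (filterByExpr with min.count 10 and min.total.count 15, TMM normalization, robust glmQLFit and two-sided glmQLFTest) over all 20622 genes that passed, with Benjamini-Hochberg adjustment over them. This test returns no standard error. The SE given with an edgeR log2 fold change is its absolute value divided by the square root of the F statistic. CPM are counts per 1000000 counts of the TMM-scaled library size, and CPM per kilobase divides them by the union of exons. Alternatives were DESeq2 (version 1.42.0 here; the study also used this tool), RLE size factors, other count filters, no robust estimation, no fold threshold, other floors of detection, the letter F or M as a factor, the replicate number as a block, and each library left out in turn. The length of the canonical transcript and list sums without their most abundant gene by CPM were added after seeing the data. Scripts were tested on simulated data, and figures were drawn with matplotlib 3.10.9.

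Values in every library are given for tested receptor genes at an unadjusted p under 0.05, the 8 with the highest levels per kilobase, the most abundant tested gene of each class, those above the floor in all libraries of only 1 group, and *Gria3*. Of the related lists they are given for the gene called and the most abundant gene of each. The receptor genes and lists were chosen with earlier results of these data known. The symbol *Kctd16* matched 2 IDs and was left out.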

Additional observations from a re-analysis of the deposited data

How the results depend on the processing

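Of the results that summarise all genes or lists, 50 recalculated values stayed within the limits set for an unchanged result and 30 moved. These limits differed between kinds of result. A fall from 24 to 17 receptor genes detected in Ctrl counted as unchanged, and a median log2 fold change of 0.172 in place of 0.22 as moved. The 27 genes called over the whole table became 214 with DESeq2, 9 with at least 10 counts in every library, 235 without a low-count filter and 7 (without Ctrl replicate 2) to 81 (without TKO replicate 3) with a library left out. The 0 receptor genes called became 1 with DESeq2 (*Gria3*), 1 without a low-count filter (*Grm4*) and 0 to 1 with a library left out, the 1 being *Gria3* without TKO replicate 3. The 17 receptor genes with positive log2 fold changes of 26 tested became 11 of 14 with at least 10 counts in every library, 19 of 39 without a low-count filter, and 15 of 30 (without TKO replicate 3) to 19 of 30 (without TKO replicate 2) with a library left out. Their median log2 fold change of 0.22 was 0.305 under that filter, 0.139 with the letter F or M as a factor and 0.03 (without Ctrl replicate 2) to 0.24 with a library left out, and 0.037 without TKO replicate 3. Without a low-count filter it was -0.428 over 39 genes, a change of sign with 13 more genes near the floor tested. The 1 gene called in related lists (*Myh3*) became 10 with DESeq2, 0 with the letter as a factor, 9 without a low-count filter and 0 to 2 with a library left out. Detection counts were 17 and 29 in Ctrl and 18 and 23 in TKO with at least 10 and at least 1 count in every library of a group.

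Same-numbered Ctrl and TKO libraries had deviations from their group means that correlated at 0.168, 0.0873 and 0.127. Differently numbered libraries correlated at -0.161 to 0.0398, below every same-numbered value. The study used littermates without the recombinase as controls unless otherwise noted, but its methods name no block, and the main fit took no pairs. Whether the numbers mark pairs was not tested. A fit with the replicate block called 45 genes, and the median log2 fold change of the receptor genes was 0.124. With that block *Gria3* had an adjusted p of 0.529 and no receptor gene was called.

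With DESeq2, the letter as a factor, the block or a library left out, 17 of the 26 tested receptor genes kept their sign and 9 did not: *Grin1* (-0.065 with the block, -0.566 to 0.566 with a library left out), *Grik2* (-0.042, and -0.878 to 1.39), *Grin2b* (-0.949 to 0.195), *Gabrg3* (-0.996 to 0.11), *Grm3* (-1.92 to 0.002), *Grik1* (-0.126 to 0.174), *Gabrb1* (-0.123 to 1.23), *Grin2d* (-0.255 without TKO replicate 3, range -0.255 to 0.323) and *Grid1* (-0.295 without Ctrl replicate 2 and -0.01 without TKO replicate 3, range -0.295 to 1.14). *Gabra2* and *Gabra3* kept negative signs but ranged widely with a library left out (-5.449 to -1.084 and -4.605 to -0.363). The causes were not tested.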
